A study of Mus musculus with 8 samples.

Results

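Dppa2, Dppa3, Dppa4, Dppa5a, Utf1, Fbxo15, Eras and Lin28a are 8 genes known for expression in embryonic stem cells (ESCs), early embryos or germ cells. 7 of them had signals well above the array medians here, and Dppa3 was near the medians on most arrays. They were chosen by name, as Dppa genes and ES-enriched effectors, because several of them moved in opposite directions in the 2i pair of this data set, and all of their probe sets were taken. They are 8 of 18194 genes and 12 of 45101 probe sets on the arrays. Because the log2 ratios of the 2i pair chose them, those ratios are given as a description, with no test. Fits with that pair added are given only as alternatives and are not independent of the choice.

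All arrays hold RNA of mouse NS tet-off ESCs, a male 129sv line in which both copies of NS, the gene of the nucleolar GTP-binding protein nucleostemin (Gnl3), are disrupted and an NS cDNA in the ROSA26 locus is kept on by a tetracycline-off transactivator until doxycycline (Dox) shuts it off. Dox-treated cells had 6 days of Dox, and Dox-untreated cells had none. The 4 backgrounds were the 2i condition, in which inhibitors of MEK and of GSK3 are added to the medium, stable integration of a Nanog expression vector, stable integration of an Esrrb expression vector, and stable integration of an empty vector, the control. Each background gave 1 Dox-treated and 1 Dox-untreated array, here called a pair, so that the 8 arrays have no replicates, and the cells of each condition come from this 1 engineered line. The labels and methods used here do not say whether the vector-carrying cells were single clones or selected pools. The paper's standard ESC medium held leukemia inhibitory factor (LIF) and serum, and it also calls the 2i condition 2i plus LIF. The title of the 2i Dox-treated array also holds the word empty, and that of the 2i Dox-untreated array does not. Whether the 2i cells carried the empty vector is therefore not clear.

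Dppa2 and Dppa4 are DNA-binding chromatin proteins that work as a heterodimer and, in mouse ESCs, switch on genes of the early cleavage embryo and of germ cells. Dppa3 shields DNA from methylation by binding Uhrf1, the cofactor of the maintenance methyltransferase Dnmt1. Utf1 is a chromatin-bound protein, and Utf1 and Fbxo15 are classical targets of Pou5f1 and Sox2. Eras is a constitutively active Ras-like GTPase that signals through PI3K to Akt, and Lin28a is an RNA-binding protein that blocks the maturation of let-7 microRNAs.

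Values are RMA log2 signals, on which a difference of 1 is a 2-fold change. The array medians lay between 5.31 and 5.36. Gnl3 was lower in all 4 pairs, with log2 ratios (Dox-treated minus Dox-untreated) between -5.68 and -4.56. The log2 ratios of all genes had standard deviations of 0.605 (2i pair), 0.371 (Nanog pair), 0.374 (Esrrb pair) and 0.644 (empty vector pair), so that 2-fold differences were more common in the 2i and empty vector pairs. Of all genes, 4.81%, 1.13%, 1.06% and 5.36% were over 2-fold higher in the 2i, Nanog, Esrrb and empty vector pairs. In the same order 3.1%, 1.17%, 0.967% and 3.85% were over 2-fold lower. Counts of gene lists below are to be read beside these shares. The 2i Dox-untreated array goes against its label. Dusp6 and Spry4, which MEK and Erk signalling induces and a MEK inhibitor should lower, had signals of 7.64 and 4.07 on the 2i Dox-treated array, against 10.95 and 9.92 on the 2i Dox-untreated array. The other Dox-untreated arrays had 10.62 to 10.98 for Dusp6 and 9.65 to 10.17 for Spry4. This array had its highest correlation with the empty vector Dox-untreated array (r = 0.995 over probe sets, the highest of any pair of arrays). Ratios of the members in the 2i pair are therefore given against the 2i Dox-untreated array and again against the empty vector Dox-untreated array. For gene lists the counts under the second array are given too. If the 2i Dox-untreated cells had no inhibitors, the 2i condition and Dox change together in the 2i pair under either reference. Their effects then cannot be told apart. For the 2i pair, higher or lower with Dox therefore only names the arrays compared.

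Sequences upstream of the genes are shown for those with an entry in the RefSeq promoter table (build GRCm38.p6). It holds the bases from 250 before to 50 after a gene's start. The 3 genes with an entry are also the members over 2-fold lower in the 2i pair. No other member had a sequence to compare, so a link between sequence and ratio was not tested. The entries were Utf1 (chr7:139943606-139943905, plus strand), Eras (chrX:7928558-7928857, minus strand) and Lin28a (chr4:134018767-134019066, minus strand). Dppa2, Dppa3, Dppa4, Dppa5a and Fbxo15 had no entry. Each is written 5′ to 3′ on the gene's strand with the GC box, the letters GGGCGG on either strand (CCGCCC where it is on the other strand), in capitals.
Utf1: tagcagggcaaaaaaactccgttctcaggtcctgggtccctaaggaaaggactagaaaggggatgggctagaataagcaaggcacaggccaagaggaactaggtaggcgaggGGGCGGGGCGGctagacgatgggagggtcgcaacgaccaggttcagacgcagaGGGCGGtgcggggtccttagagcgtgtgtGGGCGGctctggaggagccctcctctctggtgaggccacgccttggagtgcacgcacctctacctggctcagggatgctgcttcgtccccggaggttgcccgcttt
Eras: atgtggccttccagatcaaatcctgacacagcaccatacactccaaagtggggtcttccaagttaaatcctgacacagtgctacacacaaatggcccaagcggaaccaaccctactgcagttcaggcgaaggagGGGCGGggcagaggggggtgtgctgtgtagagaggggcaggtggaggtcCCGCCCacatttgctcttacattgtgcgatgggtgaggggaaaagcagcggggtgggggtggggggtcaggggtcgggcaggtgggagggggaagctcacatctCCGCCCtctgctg
Lin28a: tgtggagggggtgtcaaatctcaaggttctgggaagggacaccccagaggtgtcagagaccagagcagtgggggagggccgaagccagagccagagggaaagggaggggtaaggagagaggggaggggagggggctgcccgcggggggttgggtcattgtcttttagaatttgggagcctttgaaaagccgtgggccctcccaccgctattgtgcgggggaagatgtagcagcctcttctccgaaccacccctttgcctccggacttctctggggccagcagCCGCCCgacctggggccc
Utf1 held 4 GC boxes (a pair of them overlapping by 1 base), Eras 3 and Lin28a 1, and 35.7% of the 32851 promoters in the table held at least 1. Their GC contents were 62.0% for Utf1, 60.0% for Eras and 63.3% for Lin28a, against a median of 52.7% over all promoters. The octamer ATGCAAAT of Pou5f1 (found in 1.74% of promoters), the Sox motif ACAATGG (3.66%), the Esrrb motif AAGGTCA (4.72%), the E-box CACGTG (7.15%) and the Klf motif GGGTGTGG (3.56%), each searched on both strands, had 0 matches in these 3 windows. A match or its absence describes these 300 bases only.

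In the 2i pair, which chose the genes, Dppa3 and Fbxo15 were over 2-fold higher in Dox-treated cells and Utf1, Eras and Lin28a over 2-fold lower, and Dppa4 was lower by less than 2-fold. Among all genes in that pair, 4.81% lay more than 2-fold up and 3.1% more than 2-fold down. With the empty vector Dox-untreated array in place of the 2i Dox-untreated array, the same 2 genes were over 2-fold higher and the same 3 over 2-fold lower, and the shares over all genes were 5.99% and 3.85%. Fbxo15 is the member just inside the threshold on the high side, at 1.24, and Dppa5a the next below it, at 0.13. On the low side Utf1 was just inside, at -1.12, and Dppa4 just outside, at -0.79. The median log2 ratio of the 8 genes was -0.47 in the 2i pair, against 0.03 over all genes, with 3 genes above 0 and 5 below.

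**Figure D1:**
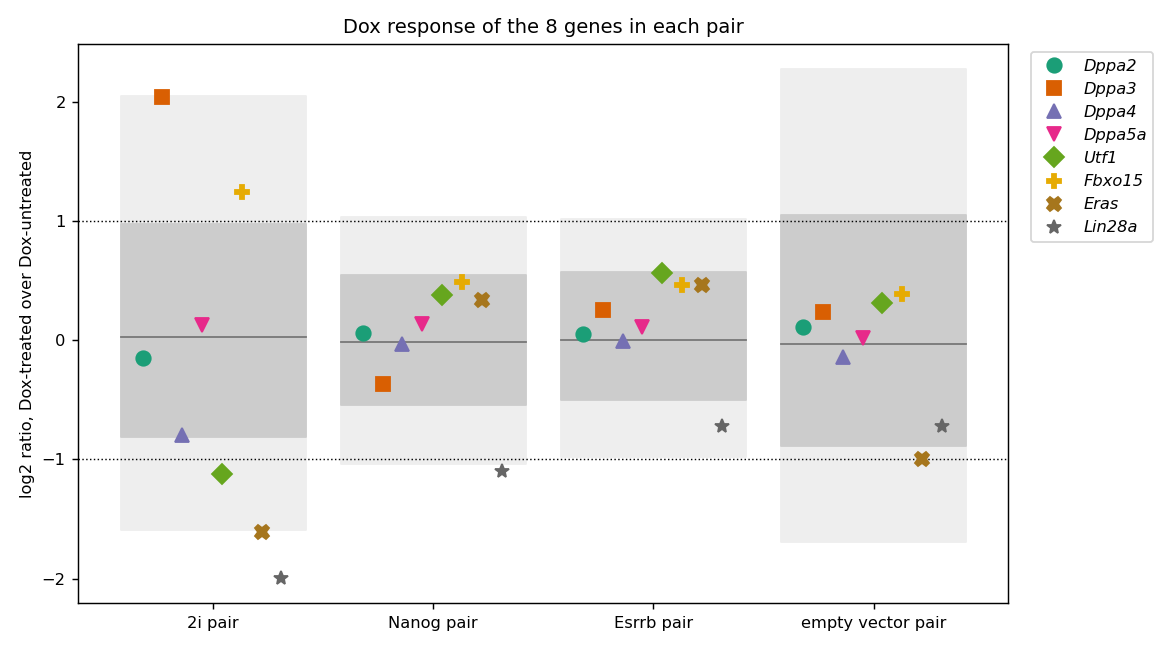
Dox response, as the log2 ratio of Dox-treated to Dox-untreated signal (y axis), of the 8 genes in each pair (x axis), with 1 probe set per gene. In the 2i pair the 2i condition may have changed together with Dox. The dark band holds the 5th to 95th percentile of all 18194 genes, the light band the 1st to 99th, the grey line their median, and dotted lines mark 2-fold; Dppa3 at 2.04 and Lin28a at -1.99 are the widest apart, in the 2i pair, and Lin28a is below 0 in all 4 pairs.

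Lin28a had lower signals in Dox-treated than in Dox-untreated cells of every background. Its brighter probe set (1437752_at) had signals of 7.97 in 2i, 8.79 in Nanog, 8.87 in Esrrb and 9.24 in empty vector cells with Dox, against 9.96 in 2i, 9.89 in Nanog, 9.60 in Esrrb and 9.96 in empty vector cells without Dox. The 4 Dox-treated arrays were all below the 4 Dox-untreated arrays, and the 2i Dox-treated array was the lowest. The log2 ratio was -1.99 in the 2i pair (25.2% of the Dox-untreated signal left), -1.10 in the Nanog pair (46.7% left), -0.72 in the Esrrb pair (60.6% left) and -0.72 in the empty vector pair (60.7% left). As a description, 0.511%, 0.901%, 2.07% and 7.23% of all genes were at least as far below 0 in those pairs. A dimmer probe set (1421749_at) gave -2.05, -0.89, -0.52 and -0.84 in the same order, and its 4 Dox-treated signals (5.98 to 7.14) were likewise all below the 4 Dox-untreated ones (7.37 to 8.03). Against the empty vector Dox-untreated array the 2i Dox-treated array was lower by a log2 difference of -1.99, and against the empty vector Dox-treated array by -1.27.

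Across the Nanog, Esrrb and empty vector pairs, taken as 3 replicates of the Dox response in a limma fit with the background as a block, Lin28a had a mean log2 change of -0.85 (SE 0.123, 95% interval -1.16 to -0.53, lower in 3 of 3 pairs). It did not pass the threshold (adjusted p = 0.0756), and the fit called only 8 genes higher (0.044% of all genes) and 10 lower (0.055%), Gnl3 among them (adjusted p = 0.0477). The backgrounds differ by design, so that these p-values rest on the spread between backgrounds and not between repeated cultures. That spread is in part the gene's own and in part borrowed by limma from all genes (3.02 degrees of freedom). Leaving out a pair leaves 1 residual degree of freedom. The Lin28a change was then -0.91 without the empty vector pair (adjusted p = 0.000352), -0.72 without the Nanog pair (0.339) and -0.91 without the Esrrb pair (0.301). The fit without the empty vector pair called 8.49% of all genes higher and 7.52% lower, while the other fits that left out a pair called 0. With the 2i pair added the change was -1.13 with adjusted p = 0.0437 in a fit that called 3.69% higher and 3.39% lower, and that fit holds the pair that chose the gene.

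Lin28a binds the letters GGAG in the loop of let-7 precursors, which directs them to decay. The array does not measure mature microRNAs, so the sequences are shown only to say what the protein recognises. Of 11 let-7 hairpins in the RefSeq table, 9 held GGAG, and all 8 of the 5p mature forms shared the seed GAGGUAG at bases 2 to 8. The let-7g hairpin (chr9:106178840-106178927, plus strand, GRCm38.p6) is given with GGAG in capitals and its mature 5p form with the seed in capitals.
let-7g hairpin: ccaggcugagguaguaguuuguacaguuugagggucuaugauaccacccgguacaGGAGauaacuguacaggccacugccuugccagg
mmu-let-7g-5p: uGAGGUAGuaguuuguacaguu
Of the 21 measured genes of the Lin28 and let-7 pathway (processing enzymes and known let-7 targets), 3 were over 2-fold lower in the 2i pair, Myc at -2.07, Hmga2 at -1.69 and Cdk6 at -1.63, and 1 was higher, Ccnd2 at 1.35. With the empty vector Dox-untreated array as reference 4 were over 2-fold lower, Myc (-1.79), Cdk6 (-1.76), Nras (-1.15) and Dicer1 (-1.15), and Ccnd2 was over 2-fold higher (1.02), while Hmga2, an architectural chromatin protein, was at -0.62. In the Nanog and Esrrb pairs 0 of the 21 were past 2-fold in either direction. Empty vector cells had Ccnd2, a cyclin, over 2-fold higher (2.38) and Igf2bp3, an RNA-binding protein, over 2-fold lower (-1.50). The median log2 ratios of the list were -0.31, 0.03, -0.04 and 0.13 in the 2i, Nanog, Esrrb and empty vector pairs, and Lin28b, the paralogue of Lin28a, was near the low end of the scale on all arrays (2.45 to 3.11).

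Eras separated the backgrounds in another way. Its single probe set (1456511_x_at, a kind whose probes may also bind other transcripts) had signals of 9.18 in 2i, 11.14 in Nanog, 11.22 in Esrrb and 9.51 in empty vector cells with Dox, against 10.78, 10.80, 10.75 and 10.50 in the same backgrounds without Dox. The Dox-untreated arrays lay within 0.30 of each other, while the 2i and empty vector Dox-treated arrays were below all of them and the Nanog and Esrrb Dox-treated arrays above all of them. The log2 ratios were -1.61 in the 2i pair, 0.34 in the Nanog pair, 0.47 in the Esrrb pair and -0.995 in the empty vector pair, where the signal left was 50.2%, just short of 2-fold.

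The Dox response of Eras in the Nanog and Esrrb pairs exceeded that in the empty vector pair by 1.40 on the log2 scale (SE 0.14, 95% interval 1.09 to 1.71, a 2.64-fold difference, adjusted p = 9.32e-05 from limma), in both pairs. That fit called 5.94% of all genes higher and 6.27% lower, and it called 1 of the 8 members, which is read as a value of Eras and not of the 8 genes together. It has 1 residual degree of freedom, from the spread of Eras between the Nanog and Esrrb pairs. To this limma adds 10.4 degrees of freedom borrowed from the spread of all genes. Its error and p-value therefore rest mostly on other genes, and the empty vector side is 1 pair. With the 2i pair added to the empty vector side the value was 1.70 and did not pass (adjusted p = 0.0521), in a fit that holds the pair that chose the gene. For the common Dox response Eras had a mean of -0.06 (SE 0.305, adjusted p = 0.928 from limma). It was of the opposite sign, 0.40, without the empty vector pair (adjusted p = 0.0048, in the fit that called 8.49% and 7.52% of all genes). It was -0.26 without the Nanog pair (adjusted p = 0.804) and -0.33 without the Esrrb pair (adjusted p = 0.717).

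The 2 Dox-treated arrays with low Eras were also those with high trophoblast markers. Of 12 measured trophoblast markers, 7 were over 2-fold higher with Dox in 2i cells and 8 in empty vector cells, against 0 in Nanog cells and 0 in Esrrb cells. Of all genes, 4.81%, 5.36%, 1.13% and 1.06% were over 2-fold higher in these cells. With the empty vector Dox-untreated array as reference 7 were over 2-fold higher in 2i cells, as were 5.99% of all genes. Their summed signal on the linear scale was 5367 in 2i, 1962 in Nanog, 2335 in Esrrb and 11250 in empty vector cells with Dox, against 1805, 1995, 2590 and 1583 without Dox. Such a sum mostly follows the brightest markers, which in empty vector cells with Dox were the keratins Krt8 (log2 signal 12.25) and Krt18 (11.89). Elf5 and Hand1 stayed under 2-fold in every pair. Krt8, a keratin of simple epithelia, had log2 ratios of 1.70, -0.48, -0.39 and 3.85, while Cdx2, a defining trophoblast transcription factor, was at 0.11, -0.04, 0.00 and 1.07, with signals of 4.28 to 5.35 over all arrays, below or near the array medians. Of the 6 ES cell markers Pou5f1, Nanog, Zfp42, Sall4, Sox2 and Esrrb, 0 were past 2-fold in any pair, and their median log2 ratios were -0.12, -0.06, 0.11 and -0.47. Their summed signal was 39960 in 2i, 37760 in Nanog, 42870 in Esrrb and 31850 in empty vector cells with Dox, against 42450, 39910, 40540 and 41160 without Dox. For 3 of these markers, Pou5f1, Zfp42 and Esrrb, the response in Nanog and Esrrb cells was higher than in empty vector cells in limma, as for 5.94% of all genes. The markers Nanog and Esrrb are also expressed from the vectors in their own backgrounds. In empty vector cells Esrrb was at -0.93. In such bulk RNA, fewer cells that express a gene and less of its RNA per cell cannot be told apart, and the part of other cell types in the Eras values was not tested.

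Of the 20 measured genes of the Ras, PI3K and Akt pathway, in which Eras acts, 1 was over 2-fold higher in the 2i, Nanog and empty vector pairs each and 0 in the Esrrb pair, and 0 were over 2-fold lower in any of them. With the empty vector Dox-untreated array as 2i reference, Pik3r3 (4.45) and Akt2 (1.14) were over 2-fold higher and Nras (-1.15) over 2-fold lower. In the pairs themselves the gene was Pik3r3, a regulatory subunit of PI3K, with log2 ratios of 3.76 in the 2i pair, 1.01 in the Nanog pair, 0.81 in the Esrrb pair and 2.27 in the empty vector pair. The list's medians were 0.01, 0.00, -0.04 and -0.02 in that order. Akt2, a kinase of the pathway, was at 0.82, 0.30, 0.07 and 0.81, and Nras, a Ras family GTPase, at -0.99, -0.38, -0.38 and -0.85.

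**Figure D2:**
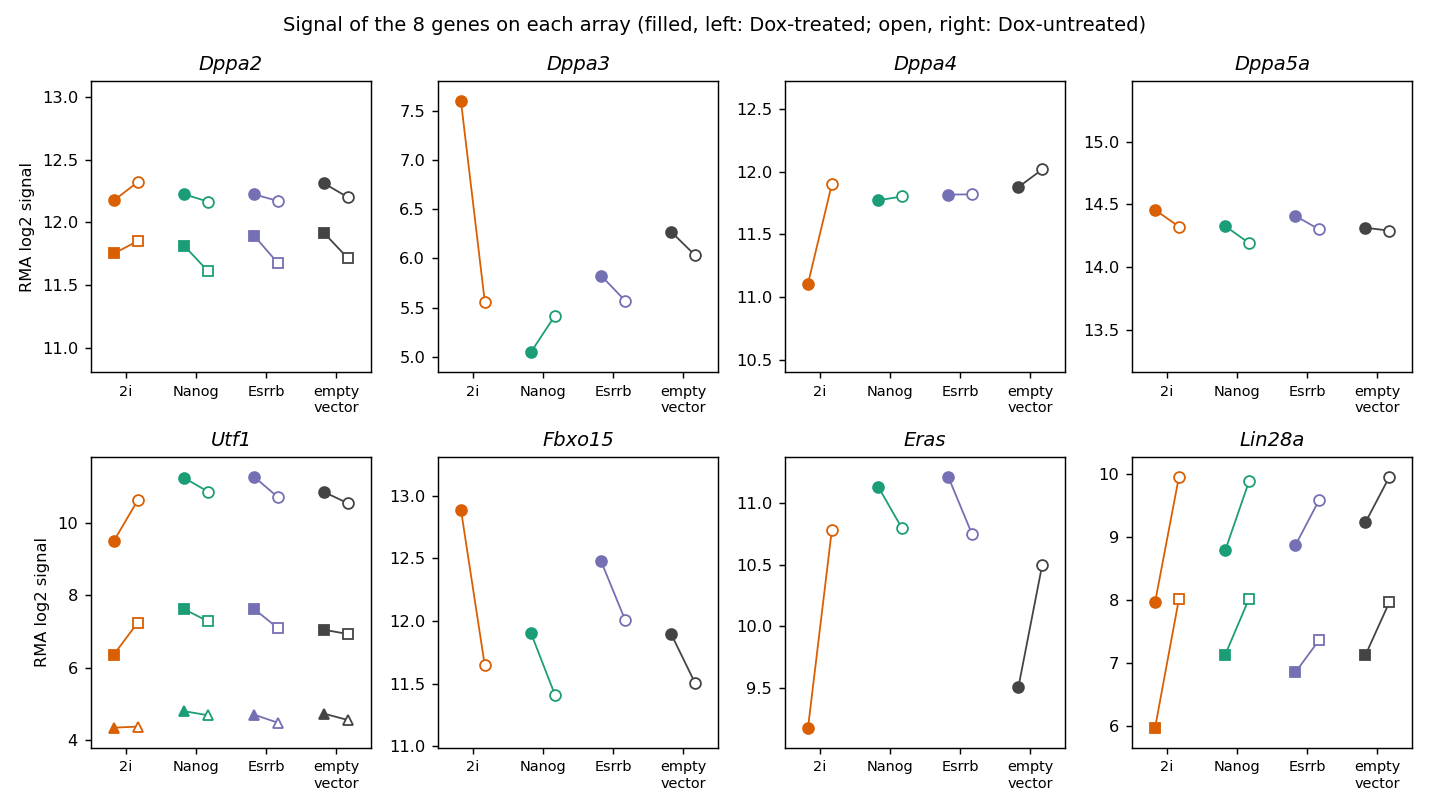
RMA log2 signal (y axis) of every probe set of the 8 genes on the 8 arrays, by background (x axis), with filled points at left for Dox-treated and open points at right for Dox-untreated cells; lines join the arrays of a pair and symbols mark the probe sets of a gene. Eras is low on the 2i and empty vector Dox-treated arrays (9.18 and 9.51), and Dppa3 is high on the 2i Dox-treated array alone (7.61).

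Utf1 was lower with Dox in the 2i pair only. Its brightest probe set (1416899_at) had signals of 9.50 in 2i, 11.24 in Nanog, 11.27 in Esrrb and 10.85 in empty vector cells with Dox, against 10.62, 10.86, 10.71 and 10.54 without Dox. The 2i Dox-treated array was the lowest of the 8, and in the other 3 backgrounds the Dox-treated array was above its Dox-untreated one. The log2 ratios were -1.12, 0.38, 0.56 and 0.31 in the 2i, Nanog, Esrrb and empty vector pairs, and -1.04 for the 2i Dox-treated array against the empty vector Dox-untreated one. A second probe set (1443786_at) gave -0.88, 0.34, 0.53 and 0.12, while the dimmest (1458333_x_at), with signals of 4.34 to 4.80 that are below the array medians, gave -0.03, 0.11, 0.23 and 0.17. The Utf1 change common to the Nanog, Esrrb and empty vector pairs was 0.42 (SE 0.0886, higher in 3 of 3 pairs) and did not pass in limma (adjusted p = 0.1). It was 0.47 without the empty vector pair (adjusted p = 0.00226, in the fit that called 8.49% and 7.52% of all genes), 0.44 without the Nanog pair (0.381) and 0.35 without the Esrrb pair (0.357). With the 2i pair added it was 0.03 with adjusted p = 0.956, in a fit that holds the pair that chose the gene.

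Fbxo15, an F-box protein and so a candidate substrate receptor of an SCF ubiquitin ligase, was higher with Dox in every background. Its probe set (1427238_at) had signals of 12.89 in 2i, 11.90 in Nanog, 12.47 in Esrrb and 11.89 in empty vector cells with Dox, against 11.65, 11.41, 12.01 and 11.50 without Dox. Within each pair the Dox-treated array was the higher, but the Esrrb Dox-untreated array was above the Nanog and empty vector Dox-treated ones, so that the groups overlap. The log2 ratios were 1.24, 0.49, 0.46 and 0.39 in the 2i, Nanog, Esrrb and empty vector pairs. The 2i Dox-treated array exceeded the empty vector Dox-untreated array by 1.38 and the empty vector Dox-treated array by 0.99.

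The Fbxo15 change common to the Nanog, Esrrb and empty vector pairs was 0.45 (SE 0.0657, 95% interval 0.28 to 0.62, higher in 3 of 3 pairs) and did not pass in limma (adjusted p = 0.0758). It was 0.48 without the empty vector pair (adjusted p = 0.000562, in the fit that called 8.49% and 7.52% of all genes), 0.43 without the Nanog pair (0.357) and 0.44 without the Esrrb pair (0.309). Of the 11 measured genes of the SCF ligase and its regulators, Fbxw7, an F-box protein that targets cyclin E and Myc, was over 2-fold higher in the 2i pair (1.28) and the empty vector pair (1.44), and Fbxo5, an inhibitor of the anaphase-promoting complex, over 2-fold lower there (-1.01 and -1.13). Both were also past 2-fold with the empty vector Dox-untreated array as 2i reference (1.28 and -1.05). In the Nanog and Esrrb pairs 0 of the 11 were past 2-fold.

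Dppa3 was high on a single array. Its probe set (1424295_at) had signals of 7.61 in 2i, 5.05 in Nanog, 5.82 in Esrrb and 6.27 in empty vector cells with Dox, against 5.56, 5.42, 5.57 and 6.03 without Dox. The 2i Dox-treated array was the highest, and the other 7 arrays lay between 5.05 and 6.27, close to the array medians, where log2 ratios are compressed. The log2 ratio was 2.04 in the 2i pair, -0.37 in the Nanog pair, 0.25 in the Esrrb pair and 0.24 in the empty vector pair. The 2i Dox-treated array exceeded the empty vector Dox-untreated array by 1.57 and the empty vector Dox-treated array by 1.33. The common change in the other 3 pairs was 0.04 (SE 0.171, 95% interval -0.40 to 0.48) and did not pass (adjusted p = 0.914 from limma).

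Of 8 measured partners of Dppa3 and enzymes of DNA methylation, the 1 gene over 2-fold lower, in 2i and in empty vector cells alike, was Uhrf1, which was at -1.08 on the 2i Dox-treated array against the empty vector Dox-untreated one. Uhrf1 had signals of 10.46 in 2i, 11.54 in Nanog, 11.25 in Esrrb and 10.21 in empty vector cells with Dox, against 11.71, 11.58, 11.68 and 11.54 without Dox. Its log2 ratios were -1.25, -0.03, -0.43 and -1.33, and the response in the Nanog and Esrrb pairs exceeded that in the empty vector pair by 1.10 (SE 0.159, adjusted p = 0.00095 from limma). Dnmt3l, the catalytically inactive partner of the de novo methyltransferases, was at -0.77 and Dnmt3b, one of those enzymes, at -0.64 in the 2i pair. Tet1, which oxidises methylated cytosine, was at -0.63, 0.39, 0.31 and -0.36. The list's median was -0.58 in the 2i pair, 0.25 in the Nanog pair, 0.23 in the Esrrb pair and -0.00 in the empty vector pair.

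Dppa4 and Dppa2, which bind each other and whose genes neighbour each other in the RefSeq annotation, did not have the same values in the 2i pair. Dppa4 (1429597_at) had signals of 11.11 in 2i, 11.77 in Nanog, 11.82 in Esrrb and 11.88 in empty vector cells with Dox, against 11.90, 11.80, 11.82 and 12.02 without Dox. The 2i Dox-treated array was the lowest, and the other 7 lay between 11.77 and 12.02. The log2 ratios were -0.79, -0.03, -0.00 and -0.14, and -0.91 for the 2i Dox-treated array against the empty vector Dox-untreated one.

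Dppa2 (1453223_s_at) was at 12.18, 12.23, 12.22 and 12.31 in 2i, Nanog, Esrrb and empty vector cells with Dox, against 12.32, 12.17, 12.17 and 12.20 without Dox. All 8 arrays lay within 0.15 of each other. Its log2 ratios were -0.15, 0.06, 0.05 and 0.11, and a second probe set (1429654_at) gave -0.10, 0.20, 0.22 and 0.20. The common change in the Nanog, Esrrb and empty vector pairs was 0.07 for Dppa2 (95% interval -0.08 to 0.23, adjusted p = 0.521) and -0.06 for Dppa4 (-0.23 to 0.12, adjusted p = 0.668), and neither passed in limma.

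Of 8 measured target genes of Dppa2 and Dppa4, 4 were over 2-fold higher in the 2i pair, 0 in the Nanog pair, 4 in the Esrrb pair and 4 in the empty vector pair, with medians of 0.59, 0.15, 1.03 and 0.94. Of all genes, 4.81%, 1.13%, 1.06% and 5.36% were over 2-fold higher in those pairs. The empty vector Dox-untreated array as 2i reference also gave 4, with a median of 1.20, where 5.99% of all genes were over 2-fold higher. Dazl, a germ cell RNA-binding protein, was at 2.28, 0.34, 1.30 and 1.53. Tcstv1, a gene of the cleavage-stage embryo, was at 1.56, 0.02, 1.64 and 1.98. Its signals of 3.46 to 5.60 over all arrays were below or near the array medians. Tdrkh, a Tudor-domain protein of the piRNA pathway, was lower, at -1.45, -0.75, -0.33 and -1.04. In limma 0 of the 8 passed for the common response, with 6 at an unadjusted p under 0.05. For the difference between the Nanog and Esrrb pairs and the empty vector pair 0 passed, with 3 under 0.05. Of all 18194 genes, 3981 and 4258 had an unadjusted p under 0.05 in these tests.

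Dppa5a, a KH-domain RNA-binding protein, had the highest signal of the 8 genes and the smallest spread of log2 ratios across pairs. Its probe set (1416552_at) was at 14.46 in 2i, 14.33 in Nanog, 14.41 in Esrrb and 14.31 in empty vector cells with Dox, against 14.32, 14.19, 14.30 and 14.29 without Dox. These are near the highest value of the whole data set (14.63), where a change may be compressed, and near-identical copies of the gene could share its probes. The log2 ratios were 0.13, 0.14, 0.11 and 0.02, and the common change of 0.09 did not pass (95% interval -0.02 to 0.20, adjusted p = 0.313 from limma).

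**Figure D3:**
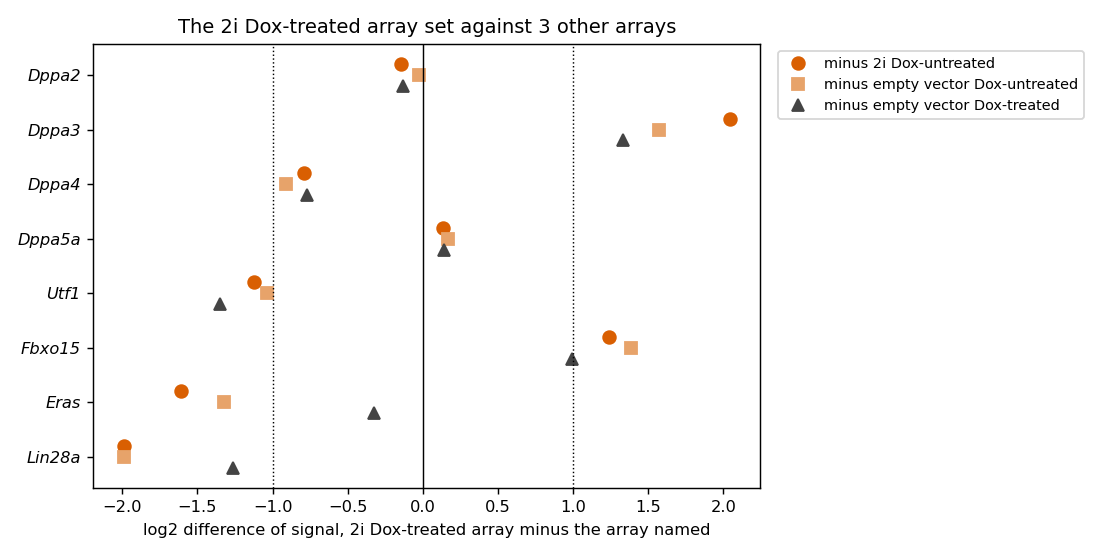
Log2 difference (x axis) between the 2i Dox-treated array and the 2i Dox-untreated array (circles), the empty vector Dox-untreated array (squares) and the empty vector Dox-treated array (triangles) for each gene (y axis), with dotted lines at 2-fold. The choice of Dox-untreated array moved Dppa3 the most (2.04 and 1.57), and Eras differed by -0.33 from the empty vector Dox-treated array.

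Outside the 2i pair few members were past 2-fold. In the Nanog pair 0 of 8 were over 2-fold higher and 1, Lin28a, lower, where 1.13% and 1.17% of all genes were. The Esrrb pair had 0 in either direction (1.06% and 0.967% of all genes), and so had the empty vector pair (5.36% and 3.85%). The members' median log2 ratios were 0.10, 0.18 and 0.07 in the Nanog, Esrrb and empty vector pairs, against -0.01, 0.00 and -0.03 over all genes. In limma 0 of the 8 passed for the common response, with 3 (Lin28a, Fbxo15 and Utf1) at an unadjusted p under 0.05, as were 3981 of all genes. For the difference 1 of 8 passed, Eras, and the intervals of the other 7 all include 0, the widest being that of Dppa3 (-0.98 to 0.38).

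Other genes set the members in context. Of 11 measured regulators known to act on Fbxo15, Utf1 or Dppa3, 0 were past 2-fold in the 2i (with either reference), Nanog and Esrrb pairs, while in empty vector cells 4 were over 2-fold lower. These were Klf4 at -1.23, Tbx3 at -1.27, Prdm14 at -1.81 and Klf2 at -2.16, all transcription factors of the naive ESC state. Nanog and Esrrb belong to this list and are expressed from the vectors in their own backgrounds. The probe sets used were not higher there without Dox. Nanog was at 12.35 in Nanog cells and 12.81 in empty vector cells, and Esrrb at 11.27 in Esrrb cells and 11.31 in empty vector cells. For 8 of the 11 the response in the Nanog and Esrrb pairs was higher than in the empty vector pair in limma, as for 5.94% of all genes. Among the 8 was Prdm14 (1.88, SE 0.158, adjusted p = 3.26e-05), whereas Utf1, Fbxo15 and Dppa3 did not pass that test. The list was chosen with earlier results of these data known.

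Of 25 other measured ES-enriched genes, the 2i pair had 2 that were over 2-fold higher and 6 that were over 2-fold lower, or 2 and 4 with the empty vector Dox-untreated array as reference. The counts were 0 and 1 in Nanog cells, 0 and 0 in Esrrb cells, and 1 and 8 in empty vector cells. In limma 15 of the 25 had a higher log2 ratio in Nanog and Esrrb cells than in empty vector cells, and 1 a lower one. Of all genes, 5.94% and 6.27% were called in these directions. Pramel7, a protein of the preimplantation embryo, was at 2.60 in the 2i pair, against -0.26, -0.01 and 0.70 in the Nanog, Esrrb and empty vector pairs. Slc27a2, a fatty acid transporter, was at -2.52, 0.01, -0.04 and -1.43, Lefty1, a Nodal inhibitor, at -2.12, 0.04, 0.04 and -1.29, and Tcl1, an Akt coactivator, at -1.88, -0.24, -0.16 and -3.27. The 12 feedback genes of MEK and Erk signalling had a median of -0.93 in the 2i pair, with 5 over 2-fold lower and 2, Fos (1.07) and Phlda1, over 2-fold higher. With the empty vector Dox-untreated array as reference 5 were lower and 3 higher. Their medians were 0.18, 0.23 and 0.29 in the Nanog, Esrrb and empty vector pairs, where 3, 0 and 2 were over 2-fold higher and 0, 1 and 1 over 2-fold lower. The 8 housekeeping genes had medians between -0.06 and 0.03, with 0 past 2-fold in any pair.

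**Figure D4:**
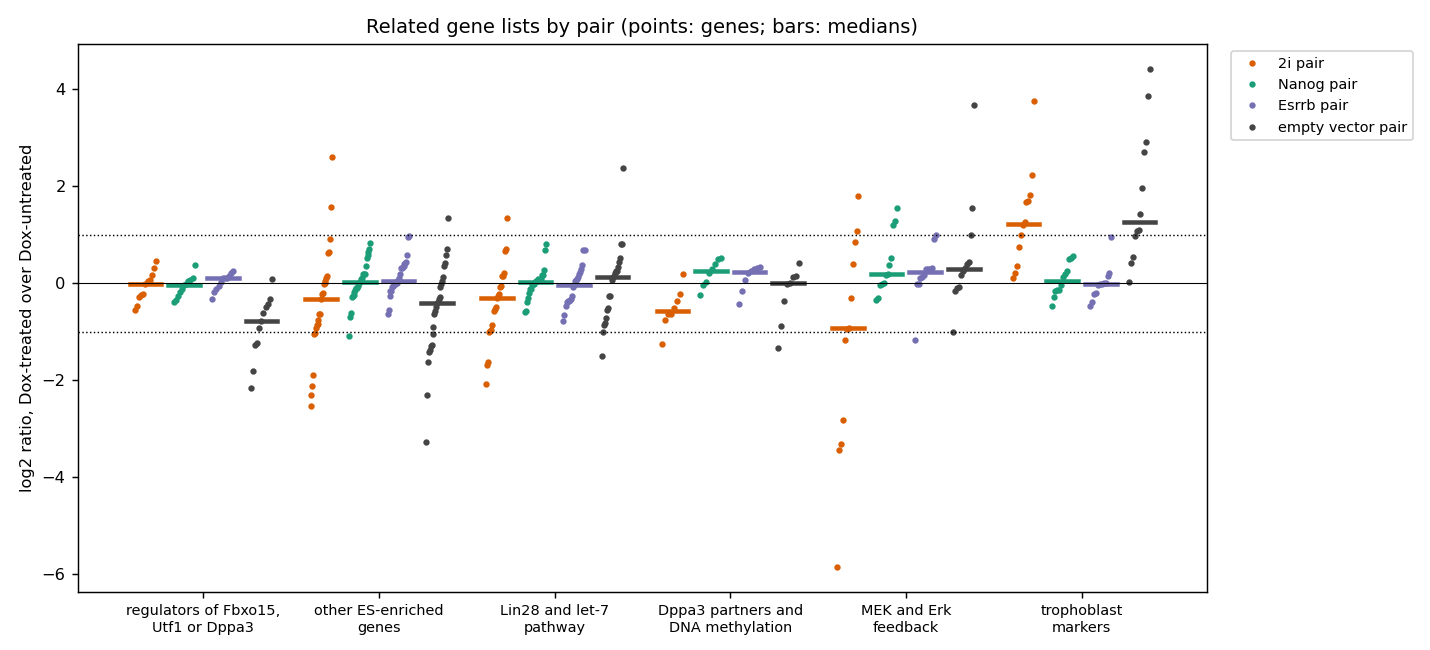
Dox response, as the log2 ratio of Dox-treated to Dox-untreated signal (y axis), of the measured genes of 6 lists (x axis) in the 4 pairs, with a point per gene, a bar at the median and dotted lines at 2-fold. In the 2i pair the 2i condition may have changed together with Dox. The trophoblast markers have medians of 1.23 in 2i cells and 1.26 in empty vector cells, and the regulators of Fbxo15, Utf1 or Dppa3 are lowest in empty vector cells, where their median is -0.77.

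The genes whose signals followed each member most closely over the 8 arrays were taken by Pearson correlation, as a description without a p, since arrays share backgrounds and 1 array can set the value. Lin28a was followed most closely by Dele1 (r = 0.991, and 0.985 over the 7 arrays without the 2i Dox-treated one), Mosmo and Ptpn12. Eras was followed by H2ax (0.992), Pcnx and Rhebl1 (0.991), a Rheb-like GTPase with log2 ratios of -1.22, 0.21, 0.13 and -0.61. Dppa3 was followed by Gca (0.992, and 0.965 without the 2i Dox-treated array), whose ratio in the 2i pair was 2.08, and by Sap30 and Dnajc24.

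Utf1 was nearest to Hsd17b14 (0.989), Pskh1 and Zfp36l1, and Fbxo15 to Lipa (0.981), Galnt6 and Iqgap1. Dppa4 was nearest to Snhg14 (0.983), Spry1 (0.979), an inhibitor of receptor tyrosine kinase signalling, and Maco1. Without the 2i Dox-treated array the correlations of Dppa4 were lower, at 0.797, 0.742 and 0.813. Dppa2 was nearest to Lpar2 (0.949), Gpn1 and Pdzd2, and Dppa5a to Slc6a8 (0.962), Gm4850 and Rad1, though the signals of both members moved little.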

How the data were processed

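RNA of 8 conditions was measured on Affymetrix GeneChip mouse genome arrays, 1 array per condition. The authors made the deposited log2 signals with RMA in the affy package (versions not given in the sources used here), which subtracts background, quantile-normalizes and summarizes the probes of a probe set, so that a shift of all genes would not be seen. The values were used as they are, from 1.82 to 14.63, and 0 value columns belong to no sample. A pair with active Stat3 was not analysed here.

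Probe sets were named from the platform annotation where it gives 1 symbol (34958), and 932 with several symbols and 9211 without a name were left out. A gene took its probe set with the highest mean, and 34754 probe sets matched RefSeq by Entrez ID. Log2 ratios are Dox-treated minus Dox-untreated signals, with no test within a pair.

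In R 4.3.3, limma 3.58.1 (lmFit and trended eBayes) tested the Dox response over the Nanog, Esrrb and empty vector pairs on 6 arrays with the background as a block (2 residual degrees of freedom), and how far the Nanog and Esrrb pairs exceeded the empty vector pair in that response (1). p-values were adjusted over all genes by Benjamini-Hochberg at 0.05, after a run on simulated data. The number of arrays limits the precision.

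The members and the gene lists were chosen with earlier results of these data known. Named genes are the members, Gnl3, Dusp6, Spry4, the 3 genes most alike per member above the median signal, and of each list up to 3 with the largest ratio in the 2i pair and any passing a test. Lin28b, Dicer1 and Fos, outside this rule, were named after their values were seen, and where a rule gave many genes the text names some of them. Alternatives were other probe set rules, normalizations, thresholds, limma settings and leaving out each pair. The rest was done in Python 3.11.15 with pandas 2.3.3, numpy 2.4.6, matplotlib 3.10.9 and scipy 1.17.1.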

Additional observations from a re-analysis of the deposited data

Results flagged for a closer look

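Utf1 had a log2 ratio below 0 in the 2i pair and above 0 in the other 3 pairs, and the 2i ratio was lower than their mean by a difference of -1.54. Dppa2 had the same signs with a difference of -0.22, beside a range of 0.15 over its 8 arrays. With 1 array per condition these differences were not tested, and the 2i pair chose the genes.

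Eras had ratios above 0 in the Nanog and Esrrb pairs and below 0 in the 2i and empty vector pairs. The mean of the former exceeded that of the latter by 1.70, which did not pass in limma (adjusted p = 0.0521). That fit holds the pair that chose the gene. The difference between the Nanog and Esrrb pairs and the empty vector pair alone was 1.40 in limma (adjusted p = 9.32e-05).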

How the results depend on the processing

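With 1 array per condition, the error of each test comes from differences between backgrounds, of the gene itself and, through eBayes, of all genes. All Eras values rest on 1 probe set that was dropped where probe sets ending in _x_at were left out. The common response called 8 genes higher and 10 lower. The counts were 0 and 2 with probe sets averaged per gene, 117 and 155 with every probe set on its own, 0 and 1 without _x_at probe sets, 0 and 0 above the median signal, after another quantile normalization, without a trend and with robust eBayes, 38 and 59 with each array centred on its median, 671 and 616 with the 2i pair added, 35 and 48 with no block for the background, and 0 to 1545 higher and 0 to 1369 lower when a pair was left out. Eras passed the difference test in 7 of 8 alternatives (adjusted p of 4.91e-06 to 0.0521). The highest of these is from the fit with the 2i pair, which chose the gene. The difference called 1081 genes higher and 1141 lower, against 328 and 520 with the mean of probe sets, 1811 and 1897 with every probe set, 386 and 597 without a trend, and 0 and 15 with the 2i pair added. That addition also turned the differences of Dppa2 to 0.073, of Fbxo15 to -0.34 and of Lin28a to 0.45, none of which passed. Leaving out the Nanog or the Esrrb pair from the difference was not run, since no residual degrees of freedom remain. When a pair was left out, the common change of Dppa3 ran between -0.0646 (without the Esrrb pair) and 0.25, with -0.0581 without the empty vector pair, and that of Eras between -0.33 and 0.40 (without the empty vector pair). In the 2i pair the 3 lower members became 2 with probe sets averaged and at 3-fold (Utf1 lost) and without _x_at probe sets (Eras not measured), and 4 at 1.5-fold (Dppa4 added). At 3-fold, 1 member was higher in the 2i pair and 0 lower in the Nanog pair, which was also 0 with the mean of probe sets, and at 1.5-fold 1 was lower in the Esrrb pair and 2 in the empty vector pair. Centring each array on its median gave 1 lower in the empty vector pair, Eras. Other causes of these shifts were not tested.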
